A study of Mus musculus with 4 samples.

Results

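Macrophages and related myeloid cells enter most solid tumours, and 41 genes that mark them were followed here in mouse mammary tumours with and without a block of the transcription factor AP-1. The genes are a fixed list of lineage receptors, surface proteins, receptors for antibodies and debris, oxidase subunits, lysosomal proteins and actin-binding proteins. They were found on the array by gene symbol, and each was read from its brightest probe set, a group of short probes for one transcript. All 41 had a probe set named for them alone, among 18193 genes named that way, and 40 of the 41 were left among the 13331 genes tested after the dimmest 40% of probe sets had been set aside. The exception was Siglec1.

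Each of 4 tumours was measured on 1 Affymetrix mouse array. All grew in nude mice carrying grafts of Eph4, an established line of mouse mammary epithelial cells, transduced with the fusion oncogene ETV6-NTRK3, in which a transcription factor gene is joined to the kinase part of a neurotrophin receptor gene. In 2 tumours, called EN, the cells carried the fusion alone, and in the other 2, called EN-TAM67, they carried TAM67 as well, a c-Jun mutant that acts as a dominant negative against AP-1. The comparison addressed what AP-1 contributes to tumours driven by the fusion. The ages and strain of the mice, the promoters of both constructs, and whether the cells were clones or tumours of a group shared a mouse are not stated in the sources used here. Nude mice lack a working thymus and hence most T cells, but keep macrophages, granulocytes and natural killer cells. Both constructs were put into the transplanted cells and not into the mice.

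Macrophages depend on the receptor for colony-stimulating factor 1 and on the transcription factor PU.1, which binds purine-rich sites near the start of many myeloid genes. They recognise antibody-coated and damaged material through Fc, scavenger and lectin receptors, many of which signal through short adaptor proteins, and they destroy what they take up with lysosomal enzymes and with oxygen radicals made by the NADPH oxidase. AP-1 acts beside PU.1 at many myeloid genes.

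Sequences upstream of 5 of the genes are shown because the genes span the range of differences found: Lyz2, Cybb and Slc11a1 were among the lowest in EN-TAM67 tumours, Itgam lay in between, and Mrc1 had a difference above 0. They are the 250 bases before the start of each gene in RefSeq's table of mouse build GRCm38.p6, written 5′ to 3′ on the gene's strand. Capitals mark the PU.1 site contexts GAGGAA and AGGAAGT and the AP-1 site TGANTCA, searched on both strands. The first and second motif share the letters AGGAA and can overlap, and the third reads the same on both strands apart from its middle base.
Lyz2, chr10:117282273-117282522, minus strand: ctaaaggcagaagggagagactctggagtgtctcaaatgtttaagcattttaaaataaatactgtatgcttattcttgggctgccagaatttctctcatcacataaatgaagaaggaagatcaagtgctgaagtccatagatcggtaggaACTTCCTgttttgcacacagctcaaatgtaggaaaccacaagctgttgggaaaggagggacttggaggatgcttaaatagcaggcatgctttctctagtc
Cybb, chrX:9469325-9469574, minus strand: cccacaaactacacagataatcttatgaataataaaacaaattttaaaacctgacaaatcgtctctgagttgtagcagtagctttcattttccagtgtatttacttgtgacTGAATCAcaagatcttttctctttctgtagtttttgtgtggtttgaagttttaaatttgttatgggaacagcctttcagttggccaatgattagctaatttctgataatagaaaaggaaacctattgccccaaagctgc
Slc11a1, chr1:74374953-74375202, plus strand: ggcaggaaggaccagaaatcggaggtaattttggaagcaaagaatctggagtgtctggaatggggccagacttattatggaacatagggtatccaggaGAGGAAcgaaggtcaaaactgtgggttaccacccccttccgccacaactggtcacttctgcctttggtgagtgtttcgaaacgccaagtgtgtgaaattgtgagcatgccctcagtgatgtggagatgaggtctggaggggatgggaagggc
Itgam, chr7:128062390-128062639, plus strand: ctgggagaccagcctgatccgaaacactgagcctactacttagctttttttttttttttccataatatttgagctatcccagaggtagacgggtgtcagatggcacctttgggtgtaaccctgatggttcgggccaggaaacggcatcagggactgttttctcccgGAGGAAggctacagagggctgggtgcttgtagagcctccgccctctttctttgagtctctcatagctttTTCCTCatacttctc
Mrc1, chr2:14229164-14229413, plus strand: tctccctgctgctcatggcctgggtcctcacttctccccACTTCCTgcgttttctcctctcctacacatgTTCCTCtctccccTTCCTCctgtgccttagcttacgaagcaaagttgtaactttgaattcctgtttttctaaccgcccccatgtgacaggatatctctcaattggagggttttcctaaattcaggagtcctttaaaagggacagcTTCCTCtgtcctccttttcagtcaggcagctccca

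Lyz2 held AGGAAGT on the opposite strand starting 100 bases before the gene, Cybb held TGANTCA 139 bases before it, and Slc11a1 held GAGGAA 152 bases before it. Itgam held GAGGAA at 84 and, on the opposite strand, at 15 bases before the start, and Mrc1 held 4 PU.1 contexts, all on the opposite strand. RefSeq's table listed upstream windows for 28 of the 41 genes, 35 windows in all. GAGGAA was present in 15 of these 35 windows and in 23.3% of all 32851 windows in the table, AGGAAGT in 6 of 35 and in 7.69%, and TGANTCA in 6 of 35 and in 6.75%. These are matches of letters, and no binding was measured.

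Most of the myeloid genes read lower in EN-TAM67 tumours, and none passed the test. Of 40 tested, 36 had a negative difference, where 47.8% of all genes did, and the median difference was -0.37, beside 0.02 over all 13331 genes, of which 11.0% lay below that median. Differences are EN-TAM67 minus EN in log2(intensity + 16), each group holding 2 tumours, and limma gave the p-values, adjusted over all genes tested. The lysosomal and effector genes had the lowest median, -0.85, and also had the lowest in each other fit that kept 1 value per gene. The roles were set after the values were seen, so this rank is a description only. The scavenger and pattern recognition receptors had a median of 0.04 with no settled sign: it was -0.04 with quantile normalization, -0.06 with median centring, and -0.35 without EN tumour 1, where all 7 tested were negative. Of the 40, 0 had an adjusted p under 0.05 in either direction, against 0.555% of all genes (0.420% lower and 0.135% higher). At an unadjusted p under 0.05, 13 of the 40 were lower and 0 higher, where 4.94% and 4.86% of all genes were. Both EN-TAM67 tumours lay below both EN tumours in 21 of the 40, against 20.0% of all genes, and above both in 0, against 20.2%. The 40 genes are read from the same 4 RNA samples and largely from the same cells, so they are not independent of each other. In RNA from whole tumours, fewer myeloid cells and less of these RNAs in each cell cannot be told apart.

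**Figure D1:**
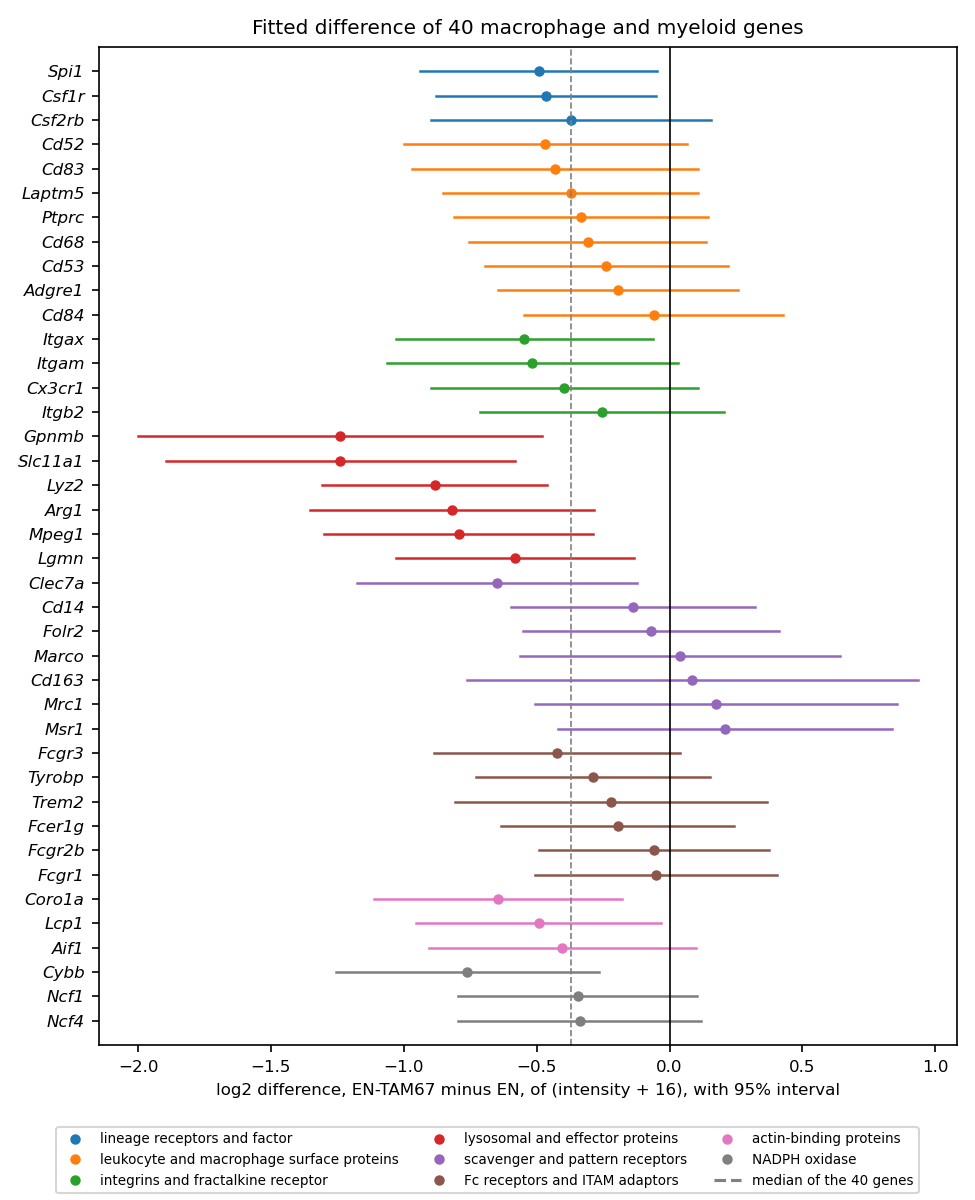
Fitted log2 difference, EN-TAM67 minus EN, of 40 macrophage and myeloid genes (points) with unadjusted 95% confidence intervals (lines), grouped by role in colour. The dashed line marks their median of -0.37. The 6 lysosomal and effector genes run from -1.24 to -0.58, and 4 scavenger receptor genes lie to the right of 0.

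The spread between tumours of a group was often as large as the group difference. In 17 of the 40 genes the EN tumours differed from each other by more than the groups did, in 17 the EN-TAM67 tumours did, and in 15 the group difference exceeded both. EN tumour 1 gave the highest reading in 23 of the 40 genes, where it did so for 19.4% of all genes, and EN tumour 2 in 14, against 30.0%. EN-TAM67 tumour 2 gave the lowest reading in 24, against 23.7% of all genes, and the highest in 0, against 24.9%. EN-TAM67 tumour 1 was highest in 3, against 25.8%, and lowest in 10, against 23.1%. Set against each gene's mean of the 4 tumours, the median of the 40 genes stood at 0.27 and 0.15 in EN tumours 1 and 2 and at -0.05 and -0.28 in EN-TAM67 tumours 1 and 2. The group order thus held at the median, and EN-TAM67 tumour 1 lay closer to EN tumour 2 than to the other EN-TAM67 tumour.

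**Figure D2:**
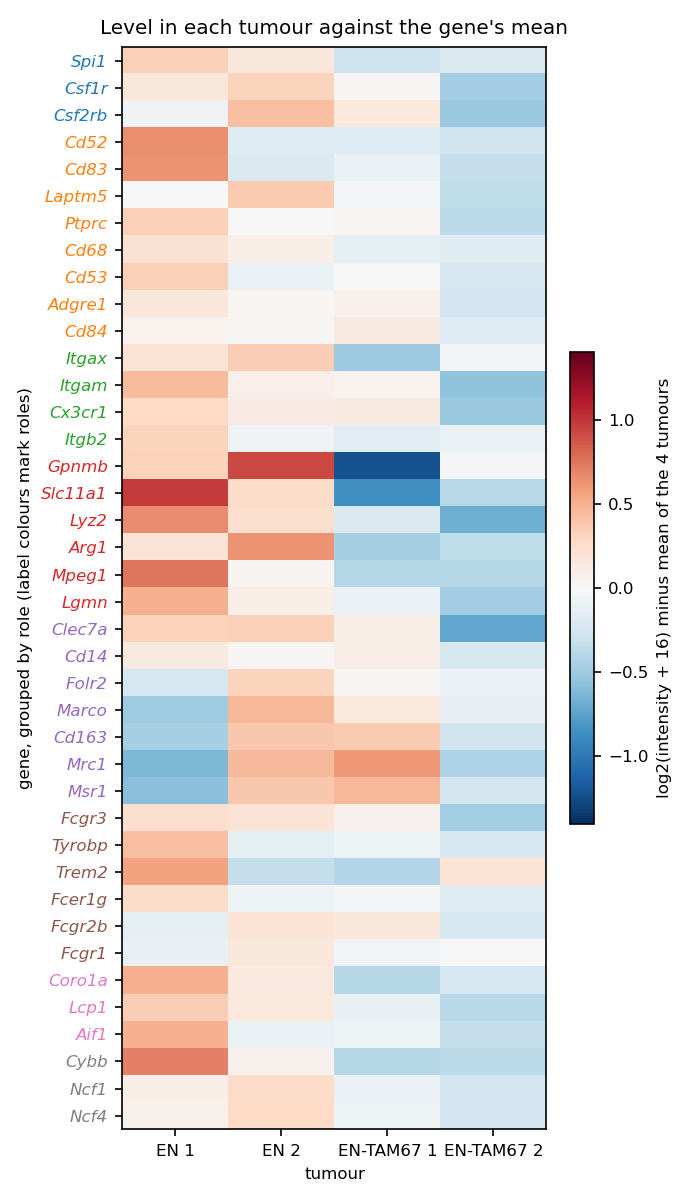
Level of each of 40 genes (rows, grouped by role) in each tumour (columns) as log2(intensity + 16) minus the gene's mean of the 4 tumours, red above and blue below the mean. EN tumour 1 holds the highest reading of 23 genes, EN-TAM67 tumour 2 the lowest of 24, and Mrc1, Msr1, Cd163, Marco, Folr2 and Fcgr1 are lowest in EN tumour 1.

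The lineage genes came first in the order of roles. Csf1r, the receptor for colony-stimulating factor 1, read 2341 and 2609 intensity units in EN tumours 1 and 2 and 2129 and 1498 units in EN-TAM67 tumours 1 and 2. The groups did not overlap, and EN-TAM67 tumour 2 was the lowest (difference -0.46 ± 0.20 SE, adjusted p = 0.446). Leaving that tumour out gave -0.21, and leaving out EN-TAM67 tumour 1 gave -0.72. The other 2 probe sets of Csf1r, fitted separately, were at -0.56 and -0.57, so all 3 pointed the same way. Spi1, which encodes PU.1, read 190.3 and 168 units in EN and 119 and 126 with TAM67, again without overlap (-0.49 ± 0.21, adjusted p = 0.449). Csf2rb, the shared signalling chain of the receptors for interleukin 3, interleukin 5 and granulocyte-macrophage colony-stimulating factor, read 109 and 157 units in EN and 127 and 74.3 with TAM67. These readings overlapped, and the difference of -0.37 was -0.04 without EN-TAM67 tumour 2.

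Among surface proteins of leukocytes and macrophages, all 8 differences were negative and small, from -0.47 to -0.06. Ptprc, the phosphatase CD45 found on all white blood cells, read 512 and 403 units in EN and 412 and 309.9 with TAM67, with EN tumour 2 between the EN-TAM67 tumours (-0.33 ± 0.23, adjusted p = 0.683). A dim second Ptprc probe set gave 0.77 when fitted separately, and with its probe sets averaged Ptprc stood at 0.22. Adgre1, the F4/80 antigen of mature mouse macrophages, read 617 and 562 units in EN and 579 and 454 with TAM67, which overlapped (-0.19 ± 0.21, adjusted p = 0.823). Cd68, a glycoprotein of macrophage endosomes, read 258 and 236 units in EN and 199 and 193 with TAM67, without overlap (-0.31 ± 0.21, adjusted p = 0.685). The intervals of these differences were wide: -0.65 to 0.26 for Adgre1 and -0.76 to 0.14 for Cd68, so the data show neither a difference nor its absence.

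In the rest of this class EN tumour 1 stood above the other 3 tumours in several genes. Cd52, a small anchored surface glycoprotein, read 728 units in EN tumour 1 and 404, 402 and 375 in the others, and its difference of -0.47 was -0.05 without EN tumour 1. Cd83, an activation marker of dendritic cells and macrophages, read 157 units in EN tumour 1 and 81.8, 88.8 and 72.9 in the others, and its difference of -0.43 was -0.02 without it. Cd53, a tetraspanin of leukocytes, read 875 and 651 units in EN and 692 and 588 with TAM67, and stood at -0.24, or -0.03 without EN tumour 1. In these 3 genes the group difference rested on 1 array. Laptm5, a lysosomal membrane protein of blood cells, read 235 and 307 units in EN and 230.2 and 180.1 with TAM67 (-0.37). Of its 5 probe sets kept, 4 were negative, from -0.58 to -0.32, and the dimmest was at 0.23. Cd84, a self-binding receptor of the SLAM family, read 70.0 and 67.9 units in EN and 74.7 and 57.1 with TAM67 and was at -0.06.

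All 4 genes for adhesion and positioning were lower, 3 of them without overlap, where 20.0% of all genes were lower without overlap. Itgax, the CD11c integrin chain of dendritic cells and some macrophages, read 94.0 and 106 units in EN and 51.5 and 77.0 with TAM67 (-0.55 ± 0.23, adjusted p = 0.441). Itgam, the CD11b chain of monocytes, macrophages and neutrophils, read 93.0 and 68.1 units in EN and 66.6 and 38.3 with TAM67 (-0.52 ± 0.26, adjusted p = 0.54). EN tumour 2 and EN-TAM67 tumour 1 were nearly level for Itgam, and without EN-TAM67 tumour 2 its difference was -0.21. Itgb2, the beta chain that both pair with, read 517 and 399 units in EN and 371 and 387 with TAM67 (-0.25, and -0.07 without EN tumour 1). Cx3cr1, the receptor for fractalkine, read 185 and 164 units in EN and 165 and 99.4 with TAM67, which overlapped by a margin of under 1 unit. Its difference of -0.40 was -0.07 without EN-TAM67 tumour 2, and a dimmer second probe set gave -0.05.

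Receptors for antibody and their signalling adaptors had a median of -0.21, with all 6 negative. Only Fcgr3 was lower without overlap, as were 20.0% of all genes. Fcgr3, an activating Fc receptor, read 899 and 869 units in EN and 792 and 541 with TAM67 (-0.42, and -0.15 without EN-TAM67 tumour 2). Fcgr2b, the inhibitory Fc receptor, read 1198 and 1492 units in EN and 1465 and 1123 with TAM67, and the groups covered almost the same range (-0.06 ± 0.21, adjusted p = 0.955). Its 3 other kept probe sets gave -0.23 to -0.06. The extracellular parts of Fcgr2b and Fcgr3 are closely alike, so how well their probes separate them is uncertain. Fcgr1, the high-affinity receptor, read 270.2 and 327 units in EN and 283 and 289.5 with TAM67 (-0.05). A dimmer second probe set, fitted separately, gave -0.61 and was highest in EN tumour 1, at 95.1 units.

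The adaptors followed EN tumour 1. Tyrobp, the adaptor DAP12, read 1911 and 1301 units in EN and 1359 and 1221 with TAM67, so that EN tumour 2 lay between the EN-TAM67 tumours (-0.29 ± 0.21, adjusted p = 0.702). Without EN tumour 1 the difference was -0.01. Fcer1g, the common Fc receptor gamma chain, read 895 and 715 units in EN and 732 and 663 with TAM67 (-0.20, and -0.04 without EN tumour 1). Trem2, a lipid-sensing receptor that signals through Tyrobp, read 162 and 79.8 units in EN and 75.1 and 122 with TAM67. Its difference of -0.22 was 0.23 without EN tumour 1, and a dimmer probe set gave 0.51, so Trem2 had no settled direction.

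**Figure D3:**
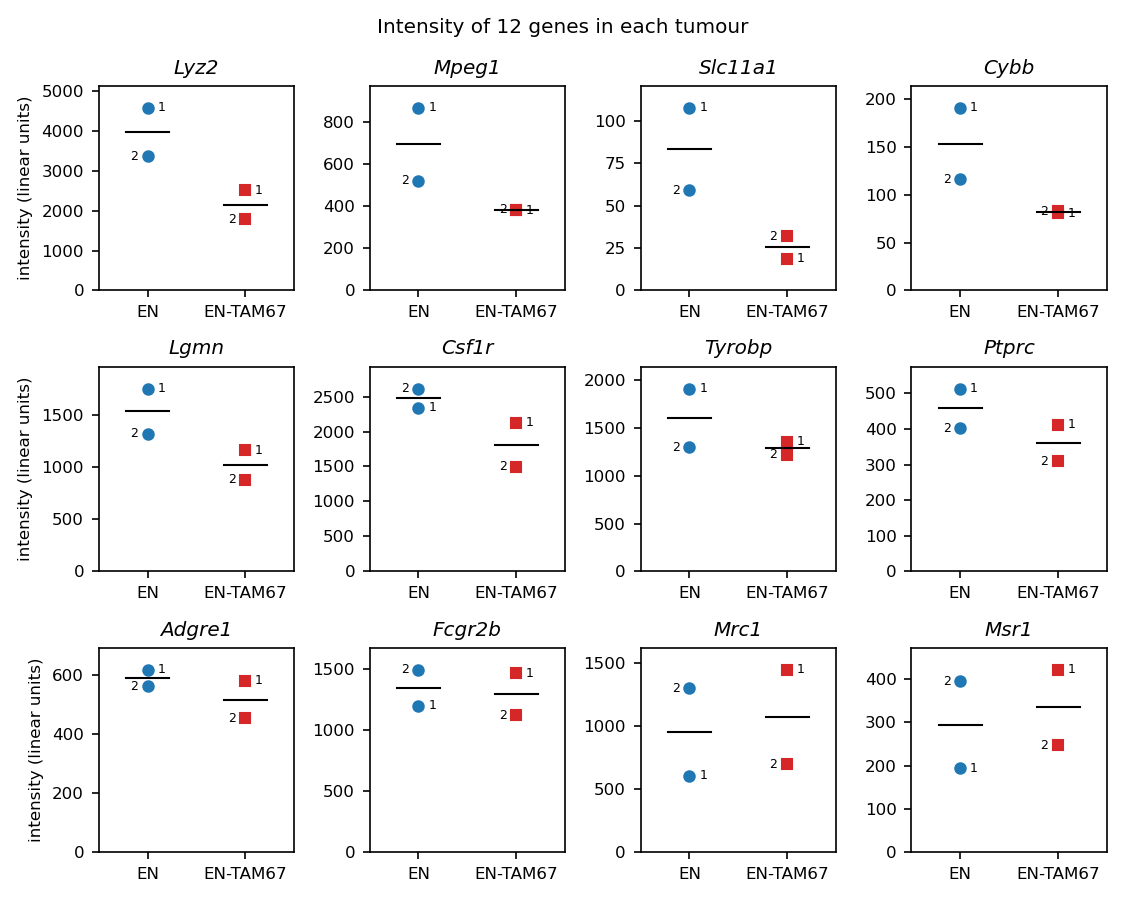
Intensity in linear units of 12 genes in each tumour, EN as circles and EN-TAM67 as squares, with the tumour number beside each point and the group mean as a bar. The groups do not overlap for Lyz2, Mpeg1, Slc11a1, Cybb, Lgmn and Csf1r, and overlap for Tyrobp, Ptprc, Adgre1, Fcgr2b, Mrc1 and Msr1.

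Most scavenger and pattern recognition receptors had the lowest reading in an EN tumour. Mrc1, the mannose receptor CD206, read 605 and 1298 units in EN tumours 1 and 2 and 1442 and 698 in EN-TAM67 tumours 1 and 2 (0.18 ± 0.32, adjusted p = 0.909). Each group held 1 high and 1 low tumour, so the sign of the difference turned to -0.37 without EN tumour 1 and to -0.34 without EN-TAM67 tumour 1. Msr1, the class A scavenger receptor, read 194 and 395 units in EN and 421 and 248 with TAM67 (0.21), in the same order of tumours. Its 3 other probe sets were at -0.09, 0.12 and 0.16, and only the last but one was also lowest in EN tumour 1. Cd163, the receptor for haemoglobin-haptoglobin, read 19.0 and 46.4 units in EN and 46.1 and 23.6 with TAM67 (0.09), readings near the edge of the filter. Marco, another class A scavenger receptor, read 40.5 and 93.9 units in EN and 72.6 and 58.0 with TAM67 (0.04). Its other probe set, below the filter, read 9.57 and 27.0 units in EN and 6.86 and 3.56 with TAM67. Folr2, the folate receptor beta of resident macrophages, read 110.1 and 169 units in EN and 134 and 125 with TAM67 (-0.07). These 5 genes and Fcgr1 were the 6 of the 40 that were lowest in EN tumour 1, a smaller share than the 29.2% of all genes, and Clec7a and Cd14 of the same class were not among them. The signs of Cd163 and Marco were negative with quantile normalization (-0.04 and -0.03) and with median centring (-0.01 and -0.06).

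The remaining receptors of this class differed among themselves. Clec7a, the beta-glucan receptor Dectin-1, read 145 and 146 units in EN and 120.1 and 61.7 with TAM67, without overlap (-0.65 ± 0.25, adjusted p = 0.393). Leaving out EN-TAM67 tumour 2 gave -0.24, and leaving out EN-TAM67 tumour 1 gave -1.05. Cd14, the co-receptor for lipopolysaccharide, read 393 and 363 units in EN and 384 and 305 with TAM67 (-0.14). Siglec1, or sialoadhesin, stayed below the filter in all 3 of its probe sets. The brightest read 14.7 and 20.8 units in EN and 38.1 and 4.01 with TAM67, and it was not tested.

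The NADPH oxidase genes were lower without overlap in all 3 cases, as were 20.0% of all genes. Cybb, the catalytic membrane subunit, read 191 and 117 units in EN and 80.7 and 82.7 with TAM67 (-0.76 ± 0.23, adjusted p = 0.247). Its 2 other probe sets gave -0.76 and -0.44. Ncf1, a cytosolic organiser subunit, read 166 and 188 units in EN and 145 and 126 with TAM67 (-0.35). Its other kept probe set, a dim one, gave 0.36, and with its probe sets averaged Ncf1 stood at 0.00687. Ncf4, another cytosolic subunit, read 235 and 277 units in EN and 214 and 184 with TAM67 (-0.34). Outside the 41 genes, Cyba, the partner chain of Cybb that many cell types express, read 549 and 448 units in EN and 219.7 and 245 with TAM67. Cyba fell by 1.05 ± 0.22 (limma adjusted p = 0.0401), a call lost under 7 of 15 alternatives, including the removal of EN tumour 1 or of either EN-TAM67 tumour (range without 1 array -1.19 to -0.91). It was the only 1 of 5 oxidase genes tested that passed, where 0.555% of all genes did, and Rac2 was at -0.47.

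Genes for lysosomal and effector proteins, a class set after the values were seen, had the lowest median among the classes. In all 6 the EN-TAM67 tumours lay below the EN tumours, as in 20.0% of all genes. Lyz2, the lysozyme of macrophages and neutrophils, read 4576 and 3369.6 units in EN and 2514 and 1790.0 with TAM67. Its difference of -0.88 ± 0.20 (95% interval -1.31 to -0.46) had the smallest adjusted p among the 40, 0.064, and stood just outside the threshold. It passed with a pseudocount of 64, with a filter that dropped 60% of probe sets, without EN tumour 2 (-1.10), and at a threshold of 0.10, where 0.615% of all genes were called lower. The near-identical paralog Lyz1 was read by 2 cross-matching probe sets at -0.43 and -0.44, so how much of either signal belongs to which gene is uncertain. Mpeg1, or perforin-2, a pore-forming protein of macrophages, read 866 and 521 units in EN and 381 and 382 with TAM67 (-0.79 ± 0.24, adjusted p = 0.231). The EN-TAM67 tumours were almost equal, and the spread lay in the EN tumours.

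Slc11a1, a metal ion transporter of the phagosome, read 108 and 59.0 units in EN and 18.6 and 32.0 with TAM67 (-1.24 ± 0.31, adjusted p = 0.11). Gpnmb, a glycoprotein of lysosome-rich macrophages, read 61.7 and 102 units in EN and 10.6 and 45.6 with TAM67 (-1.24 ± 0.36, adjusted p = 0.205). Their size and rank rested on the pseudocount. With 16 they were the farthest from 0 among the 40, with 1 they were at -1.66 and -1.79, and with 64 at -0.71 and -0.67, behind Lyz2 (-0.87) and Mpeg1 (-0.73). Gpnmb moved to -0.64 when EN-TAM67 tumour 1 was left out and to -1.84 when EN-TAM67 tumour 2 was. Arg1, the arginase of alternatively activated macrophages, read 67.8 and 97.5 units in EN and 37.2 and 41.5 with TAM67 (-0.82 ± 0.25, adjusted p = 0.248). Lgmn, the lysosomal protease legumain, which other cells also make, read 1753 and 1323 units in EN and 1164 and 879 with TAM67 (-0.58 ± 0.21, adjusted p = 0.355). Without EN tumour 2, the array nearer to the EN-TAM67 tumours for Lyz2, Mpeg1, Slc11a1 and Cybb, these 4 genes passed the threshold, at -1.10, -1.15, -1.60 and -1.08, in a fit that called 0.788% of all genes lower. Without EN tumour 1 the same genes were at -0.66, -0.44, -0.88 and -0.44, and none passed. The -1.84 of Gpnmb without EN-TAM67 tumour 2 rests on 10.6 units in EN-TAM67 tumour 1, a reading near background.

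The 3 genes for actin-binding proteins of white blood cells were lower by similar amounts. Coro1a, coronin, read 456 and 349 units in EN and 236 and 264 with TAM67, without overlap (-0.64 ± 0.22, adjusted p = 0.314). A second probe set gave -0.51. Lcp1, or L-plastin, read 395 and 342 units in EN and 285 and 231 with TAM67 (-0.49), and its other probe set gave -0.69. Aif1, the calcium-binding protein Iba1, read 349 and 227 units in EN and 231 and 189 with TAM67. EN tumour 2 was below EN-TAM67 tumour 1 here, and the difference of -0.40 was -0.11 without EN tumour 1.

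Of 13 genes with more than 1 probe set kept, 8 had negative differences in every probe set and 5 had mixed signs (Laptm5, Msr1, Ncf1, Ptprc and Trem2). Of the 62 probe sets kept for the 41 genes, 52 were negative and 0 passed when every probe set on the array was fitted separately. The signs of 28 of the 40 genes held in all 15 other fits. In 31 of the 40 the removal of at least 1 array moved the difference by over 1.5 times or turned its sign. The median of the 40 stayed negative in every fit reaching -0.23 when EN-TAM67 tumour 2 was left out and -0.49 when EN-TAM67 tumour 1 was.

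Genes that act on or beside these receptors were read from lists of their own. In the list of growth factors and attractants of myeloid cells, 3 of 21 tested fell and 0 rose. Of all genes, 0.420% fell and 0.135% rose. The list also holds Cd200, which is neither and is among the 3. The median of the list was -0.40. Cd200, a surface protein whose receptor restrains myeloid cells, read 372 and 253 units in EN and 76.4 and 58.1 with TAM67 and fell by 1.96 ± 0.23 (limma adjusted p = 4.7e-04). Cxcl12, a chemokine made largely by stromal cells, fell by 1.42 ± 0.22 (adjusted p = 0.0052), and Ccl8, a monocyte chemokine, fell by 0.98 ± 0.19 (adjusted p = 0.0311). The call of Cd200 was lost in 1 of 15 other fits, that of Cxcl12 in 4 and that of Ccl8 in 6. Without EN-TAM67 tumour 2 Cxcl12 did not pass, and Ccl8 did not pass without EN tumour 1 or without either EN-TAM67 tumour. The ligands of the lineage receptor did not pass: Csf1 read 486 and 678 units in EN and 578 and 468 with TAM67 (-0.14), and Il34 65.9 and 79.4 against 51.5 and 30.6 (-0.66). Cx3cl1, the ligand of Cx3cr1, was at -0.41.

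Other macrophage genes were read alongside, beside 47.8% of all genes negative and 0.555% past the threshold. Of 43 other surface and secreted genes tested, 0 passed in limma's fit, 32 were negative, and the median was -0.24, farthest from 0 in Fcgr4, an Fc receptor (-1.06 ± 0.29, adjusted p = 0.151), and Pirb, an inhibitory receptor (-0.90 ± 0.24, adjusted p = 0.158). Fcgr4 was at -0.50 without EN tumour 1 and at -1.62 without EN tumour 2. With 1 array left out the median of the 43 ran from -0.41 to -0.12. Of 21 signalling kinases, adaptors and scaffolds 0 passed, 18 were negative, and the median was -0.22 (Ptk2b -0.84 ± 0.23, adjusted p = 0.180, and Btk -0.66 ± 0.30, adjusted p = 0.486). Of 14 myeloid transcription factors 0 passed and 8 were negative, with a median of -0.02 (Cebpd -0.46 ± 0.21, adjusted p = 0.492, and Irf8 -0.43 ± 0.22, adjusted p = 0.557). Of 19 lipid and lysosome genes, Apoe fell by 0.98 ± 0.19 (adjusted p = 0.0243) and Fabp5, a fatty acid binding protein, rose by 1.16 ± 0.23 (adjusted p = 0.0308), while the median was -0.17. The Apoe call was lost in 8 of 15 other fits and the Fabp5 call in 6, each of them without EN tumour 1 and without either EN-TAM67 tumour. Lpl, lipoprotein lipase, which adipocytes also make in quantity, read 90.6 and 60.3 units in EN and 137 and 556 with TAM67 (1.71 ± 0.40, adjusted p = 0.0754). It was at 0.76 without EN-TAM67 tumour 2, the tumour in which adipocyte markers were highest, and their part in it was not tested. It passed without any 1 of the other 3 arrays.

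Genes named for alternative activation had a median of 0.11 over 10 tested. Of these, 4 were negative, where 47.8% of all genes were, and 0 passed the threshold. Of the 12 listed, 4 stand among the 41. The sign of that median was not settled: it was -0.10 with the stricter filter, -0.0052 with quantile normalization and -0.23 without EN tumour 1. Arg1 (-0.82) and Chil3 (0.58 ± 0.42, adjusted p = 0.700), both listed as markers of that state, differed in opposite directions. Among genes of classical activation 1 of 7 tested passed, where 0.555% of all genes did. This was the chemokine Cxcl9, which fell by 2.47 ± 0.46 (adjusted p = 0.0236), from 376 and 65.8 units in EN to 22.3 and 11.4 in EN-TAM67 tumours. Both EN-TAM67 readings lay under the medians of their arrays, 38.1 and 40.8 units. The Cxcl9 call was lost in 8 of 15 other fits, quantile normalization, median centring and averaged probe sets among them. With 1 array left out its difference ran from -3.60 to -1.34, the smallest without EN tumour 1. Il1b, the inflammatory cytokine interleukin 1 beta, stood at -0.83 ± 0.28 (adjusted p = 0.289), at -0.34 without EN tumour 1, and passed without EN tumour 2 (-1.32). The median of the 7 was -0.42, and -0.24 with no filter or with a pseudocount of 64.

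**Figure D4:**
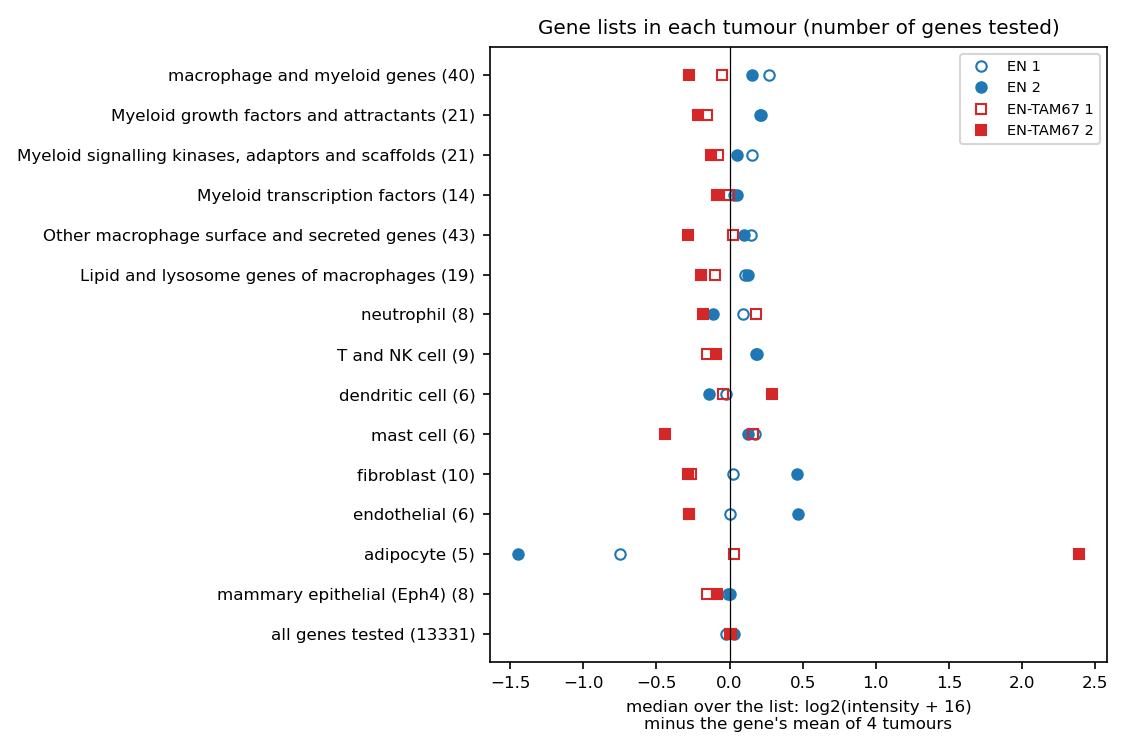
Median over each gene list of log2(intensity + 16) minus the gene's mean of the 4 tumours, by tumour, with the number of genes tested in brackets. The macrophage and myeloid genes lie at 0.27 and 0.15 in EN and -0.05 and -0.28 with TAM67, all genes lie within 0.03 of 0, and the adipocyte list reaches 2.39 in EN-TAM67 tumour 2.

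Markers of other cells were read in the same tumours, beside 47.8% of all genes negative and 0.135% called higher. The 41 myeloid genes summed to 23063 and 20671 units in EN and 18391 and 14258 with TAM67. Fibroblast markers had a median difference of -0.60, with 8 of 10 negative and sums of 19250 and 26181 units in EN against 17268 and 15054, so that their highest tumour was EN tumour 2 and not EN tumour 1. Without EN tumour 2 the median was -0.31. Endothelial markers had -0.55, with 6 of 6 tested negative and sums of 627 and 868 against 475 and 548 units, and -0.29 without EN tumour 2. Adipocyte markers had 2.33, with 5 of 5 positive, 4 past the threshold, and sums of 545 and 345 against 1398 and 6017 units. Leaving out 1 array gave adipocyte medians from 1.06 to 3.60. The lowest came when EN-TAM67 tumour 2 was dropped. Of the 4 calls, Adipoq (limma adjusted p = 0.0485) and Retn (limma adjusted p = 0.0481) lay just under the threshold. Mammary epithelial markers had -0.02, with 4 of 8 negative and sums of 3574 and 3829 against 3016 and 3018 units. With 1 array left out their median ran from -0.20 to -8.8e-04, and it was -0.20 with the stricter filter. The part of these other cells in the myeloid differences was not tested.

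Markers of other white blood cells had medians of mixed sign, beside 47.8% of all genes negative. Many of these markers read near the array medians given below. Without 1 array the medians were -0.19 to 0.11 (neutrophil), -0.59 to 0.07 (mast cell) and 0.05 to 0.46 (dendritic cell). For T and natural killer cell markers they were -0.37 to -0.28. Neutrophil markers, which overlap with Lyz2 and Itgam in what they mark, had a median of -0.07 over 8 tested and sums of 493 and 489 units in EN against 533 and 360.4, and Camp was listed at 0 in EN-TAM67 tumour 2. T and natural killer cell markers had -0.31, with 6 of 9 negative and -0.08 once probe sets were averaged (sums of 673 and 625 against 494 and 538 units), mast cell markers -0.22 with 5 of 6 negative (335 and 312 against 341 and 219), and dendritic cell markers 0.32 with 2 of 6 negative (264 and 242 against 282 and 342). Of the 7 B cell markers on the array 6 were below the filter (sums of 179 and 97.4 against 191 and 179 units). Signs of RNA quality moved with the groups too. Gapdh signal at the 3′ end over that at the 5′ end was 0.938 and 1.04 in EN and 1.17 and 1.11 with TAM67, and the same ratio for beta-actin was 1.11 and 1.19 against 1.31 and 1.34. Signal of 18S ribosomal RNA was 5.43 and 6.40 in log2 units in EN and 6.76 and 7.43 with TAM67. It ran in the reverse order of the myeloid medians of the 4 tumours (0.27, 0.15, -0.05 and -0.28), and the part of these signs in the results was not tested. Array medians were 35.6 to 40.8 units.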

How the data were processed

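The authors deposited linear intensity values, 1 per array, for 45101 probe sets on 4 arrays. Biotin-labelled cRNA from Trizol-extracted total RNA was hybridised, per the labels' protocols, and how the authors summarised, background-corrected and scaled the intensity values is not stated in the sources used here. The number of arrays limits the precision, and no depth applies. The labels do not say whether tumours of a group had different hosts or cultures, so the p-values reflect only spread among these samples, possibly technical. The labels name no batch.

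Probe sets were named through the platform's annotation table, and a gene's probe set with the highest mean log2(intensity + 16) over the 4 arrays was used. Controls (64) and the dimmest 40% of probe sets were left out, which kept 27022 probe sets and 13331 genes with 1 symbol. The comparison used limma 3.58.1 under R 4.3.3 (lmFit, then eBayes, its prior variance following mean intensity). Tests were two-sided, with a Benjamini-Hochberg adjusted p under 0.05 and no term for tumour number. On simulated data for the same 13331 genes the fit called 74% of genes changed 2-fold, 100% of those changed 4-fold, and 9 unchanged genes. The changed genes were not drawn from the dimmest ones, and the noise was normal and independent between arrays and genes. The simulation held no shift of a whole tumour, so these rates need not hold for the real tumours. Promoter windows came from RefSeq (GRCm38.p6), and plots from matplotlib 3.10.9.

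The myeloid genes, the other lists and the tests were chosen with earlier results of these data known. Full statistics follow a rule: genes past the threshold, the 12 with the largest difference, the 6 brightest, and Csf1r, Adgre1, Cd68, Itgam, Ptprc and Spi1; from the other lists, genes past the threshold and the 2 with the largest difference. Other genes, Ccr2 with its statistics among them, were chosen after their values were seen, as were the roles by which genes are grouped. Alternatives were other filters, scalings, pseudocounts, probe set rules, variance models, a threshold of 0.10, the replicate block and each array left out. A search of protein sequences for signalling motifs was not run.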

Additional observations from a re-analysis of the deposited data

How the results depend on the processing

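With 2 arrays in each group, single arrays decided calls, and a tumour left alone in its group was taken to vary as the other group did. Over all genes, 74 passed (56 lower and 18 higher), 38 with quantile normalization, 35 with a gene's probe sets averaged, 44 with every probe set fitted separately, 5 without the intensity trend, and 18 to 195 with 1 array left out. With median centring 48 were lower and 7 higher. Of the myeloid genes 0 passed as lower, 1 with a filter that dropped 60% of probe sets, with a pseudocount of 64 or at a threshold of 0.10 (Lyz2 each time), and 0 to 4 with 1 array left out. None passed as higher in any of these fits. Their median ran from -0.49 to -0.23 with 1 array left out.

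Tumour numbers occur in both groups, but the labels tie nothing to them, and deviations of same-numbered tumours correlated at -0.065 across genes. With the replicate block 11 genes passed, no myeloid gene did, and their lowest adjusted p was 0.174.

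Signs turned for 12 of the 40 genes, none of them past the threshold in the fit where the sign turned. Averaging probe sets gave 0.22 for Ptprc, 0.00687 for Ncf1 and 0.15 for Trem2. Quantile normalization gave 1.3e-04 for Fcgr2b, -0.036 for Cd163 and -0.029 for Marco, and median centring -0.013 for Cd163 and -0.059 for Marco. With 1 array left out the ranges were -0.37 to 0.72 for Mrc1, -0.28 to 0.69 for Msr1, -0.33 to 0.50 for Cd163, -0.44 to 0.52 for Marco, -0.67 to 0.23 for Trem2, -0.18 to 0.080 for Fcgr1, -0.25 to 0.13 for Fcgr2b, -0.35 to 0.21 for Folr2, -0.30 to 0.022 for Cd14 and -0.22 to 0.094 for Cd84. The cause was not tested beyond which array was left out. Cd163, and Gpnmb in EN-TAM67 tumours, are read near background, and the pseudocount understates such differences.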

Other observations

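Genes outside the myeloid list, picked here after their values were seen, were, like Mrc1 and Msr1, lowest in EN tumour 1. F13a1, the coagulation factor XIII A chain that some tissue macrophages express, read 400.4 and 1103 units in EN tumours 1 and 2 and 976 and 620.1 in EN-TAM67 tumours 1 and 2. Lyve1, a hyaluronan receptor of lymphatic vessels and some resident macrophages, read 58.3 and 144 units in EN and 137 and 105 with TAM67. Pf4, platelet factor 4, read 176 and 455 units in EN and 335 and 249 with TAM67. All 3 were highest in EN tumour 2, where Mrc1 and Msr1 were highest in EN-TAM67 tumour 1. None differed between groups past the threshold with all 4 arrays. F13a1 was at 0.93 without EN tumour 2 and at -0.49 without EN tumour 1. Because they were chosen for their lowest tumour it is a description only.

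Ccr2, the receptor that brings monocytes out of the blood, read 339.9 and 411 units in EN and 735 and 492 with TAM67. Both EN-TAM67 readings lay above both EN readings, as in 20.2% of all genes. Its difference of 0.66 ± 0.23 SE did not pass the threshold (limma adjusted p = 0.330). The complement genes C1qa (-0.74), C1qb (-0.82) and C1qc (-0.67), made mainly by macrophages, had both EN-TAM67 readings under both EN readings. So did 20.0% of all genes, and none of these complement genes passed the threshold with all 4 arrays. Without EN tumour 2 they were at -0.96, -0.99 and -0.94, and without EN tumour 1 at -0.52, -0.64 and -0.41. Ctss, the lysosomal protease cathepsin S, was at -0.62, at -0.81 without EN tumour 2 and at -0.43 without EN tumour 1. Ms4a7, a membrane protein of macrophages, was at -0.24.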
